A study of Mus musculus with 11 samples.

Results

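Genes that build, cut and cross-link the extracellular matrix were read in mouse liver: the protease inhibitors Timp1, Timp2 and Timp3, the matrix metalloproteinases Mmp2, Mmp14 and Mmp19, the cross-linking enzyme Loxl1, and the matrix-binding proteins Sparc and Bgn. They were chosen by symbol from a list of 10 genes, of which 9 had values in the deposited table of 13636 genes. Lox, the remaining gene of the list, was not analysed here. The livers came from male mice of the inbred laboratory strain C57BL/6J. They were fed a Western diet from 8 weeks of age for a month and were then injected over 6 weeks with 1 of 3 agents: a mimic of the microRNA miR-30c, a scramble oligomer, or PBS, the saline vehicle. The dose of either oligomer was raised stepwise, through 2.5 mg/kg and 5.0 mg/kg to 7.5 mg/kg. There were 4 mimic, 3 scramble and 4 PBS libraries of whole liver RNA, and all groups shared the strain, sex and diet. The labels do not say that each library came from a mouse of its own, so p-values reflect only the spread from library to library, which may be technical.

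The extracellular matrix of the liver is laid down mainly by stellate cells and fibroblasts, and its collagen is stiffened when lysyl oxidases cross-link the fibres. Matrix metalloproteinases, or MMPs, cut matrix proteins, and tissue inhibitors of metalloproteinases, or TIMPs, bind the active MMPs and block them. In scarring liver, matrix genes, MMPs and TIMPs are known to be expressed together.

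Values are the authors' scaled CPM, in which each library was divided by an effective library size. Reads per gene are no values of the authors but were inferred from the steps between a library's values. By this inference 39705157 to 101380174 reads were counted per library. RNA integrity numbers of 8.4 to 9.2 were given for 7 libraries and none for 4, and the labels name no batch. The mimic libraries were not alike: major urinary protein (Mup) genes took 12.5% and 11.6% of the counted reads in mimic 1 and 4 and 34.8% and 41.3% in mimic 2 and 3, against 37.9% to 52.9% in the 7 scramble and PBS libraries. The acute phase Saa genes took 2.61%, 0.699%, 0.720% and 2.05% in mimic 1 to 4, against 0.0101% to 0.0211% in scramble and PBS libraries. The calls among the 9 genes were therefore also made with mimic 2 and 3 as the only mimic libraries, a choice made after seeing the data.

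In mimic livers against scramble livers, 6 of the 9 genes rose, 1 fell and 2 were not called. A gene was called at an adjusted p below 0.05 in limma, a linear model with a moderated variance, with Benjamini-Hochberg adjustment over all 13636 genes. Over all genes, 32% were called in this comparison, 17.3% higher and 14.7% lower. Against PBS livers, 8 of the 9 rose and 1 fell, where 37.1% of all genes were called, 20% higher and 17.1% lower. In scramble against PBS livers, 0 of the 9 genes and 0% of all genes were called, while 434 genes had an unadjusted p below 0.05 in the same limma fit. Both comparisons of the mimic use the same 4 mimic libraries, and changes are differences of log2(scaled CPM + 1), a scale that understates the change of low genes. The median change of the 9 genes was 0.85 against scramble and 0.89 against PBS, beside medians of 0.00 over all genes. The deposited table holds genes with at least 1 CPM, from column totals, in 3 or more libraries. Timp1 and Loxl1 reached that level only in the mimic libraries, so these 2 had to differ, and the medians of the 9 genes include them. Of the other 7, 4 were higher and 1 lower against scramble, and 6 were higher and 1 lower against PBS. Of all 12516 genes that reached 1 CPM in 3 libraries without the mimic libraries, 14.6% were higher and 15.9% lower against scramble, and 17.4% and 18.5% against PBS. With mimic 2 and 3 as the only mimic libraries, 7 genes were still called against scramble and 8 against PBS. The changes of the called genes then ran from -0.68 for Timp3 to 1.81 for Sparc against scramble, and from -0.45 to 1.82 against PBS.

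**Figure D1:**
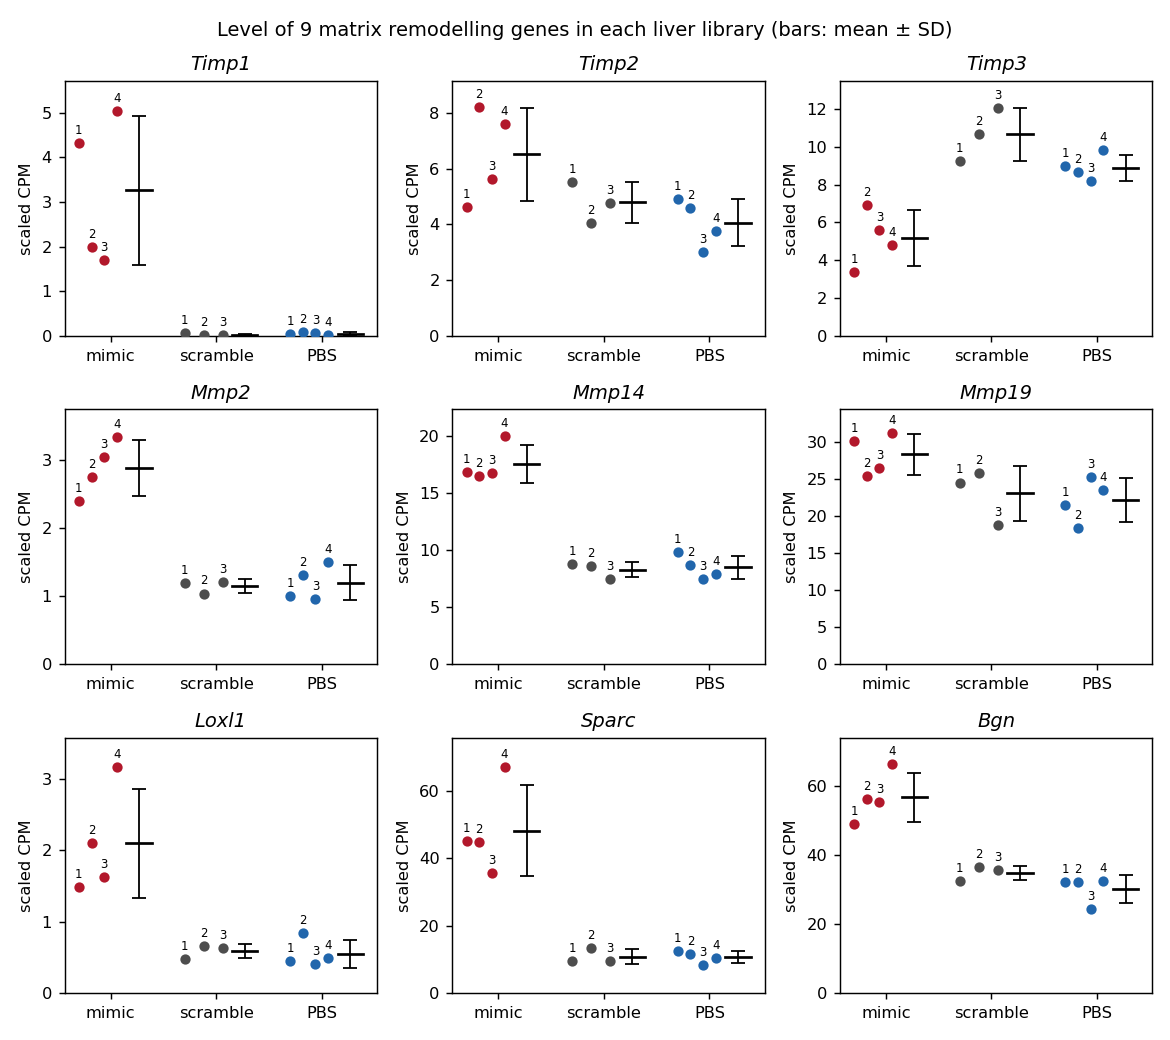
Level of each of the 9 genes in every liver library, in scaled CPM on an axis that starts at 0. Numbered points are libraries, and the bar to their right is the mean ± SD of the 4 mimic, 3 scramble or 4 PBS libraries. Timp3 alone lies lower in all mimic libraries, Timp2 and Mmp19 overlap with scramble, and the other 6 genes lie higher in all mimic libraries than in either other group. Timp1 and Loxl1 among them had to differ by the filter.

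The inhibitors went apart. Timp1, on mouse chromosome X from 20870166 to 20874735 on the plus strand (GRCm38, GENCODE M21), encodes a secreted TIMP that is a widely used mark of liver scarring. Its level was 4.32, 1.98, 1.71 and 5.04 scaled CPM in mimic 1 to 4, against 0.0593, 0.0132 and 0.0156 in scramble 1 to 3 and 0.0452, 0.0931, 0.0594 and 0.0161 in PBS 1 to 4. The mimic livers thus held 100 to 442 inferred reads of the gene each, while no scramble or PBS liver held more than 5, and the groups were far from overlapping. Timp1 reached 1 CPM only in mimic livers, however, and so had to differ by the filter, which also favoured its p-values. Timp1 averaged 3.26 ± 1.66 scaled CPM in mimic, 0.0294 ± 0.0260 in scramble and 0.0535 ± 0.0320 in PBS livers (SD, n = 4, 3 and 4). The log2 change was 1.96 ± 0.24 (SE) against scramble (limma, adjusted p = 0.000176) and 1.93 ± 0.22 against PBS (limma, adjusted p = 0.0001). Pooled over libraries, 943 inferred reads in mimic stood against 6 in scramble and 13 in PBS, ratios of 119 (95% interval 54.3 to 324) and 65.8 (38.3 to 124) after scaling, where the intervals cover counting error only. Scramble 1 held 4 of the 6 reads, and without it the ratio was 240 (66.2 to 1984). Mimic 1 and 4 were the high ones and mimic 2 and 3 the low ones.

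Timp2, on chromosome 11 from 118301069 to 118355740 on the minus strand, encodes a TIMP that also helps Mmp14 to activate the Mmp2 precursor. It was read at 4.62, 8.20, 5.63 and 7.60 scaled CPM in mimic 1 to 4, against 5.53, 4.05 and 4.77 in scramble 1 to 3 and 4.90, 4.58, 3.03 and 3.76 in PBS 1 to 4. Mimic 1 lay within the range of both other groups. The means were 6.51 ± 1.67 in mimic, 4.79 ± 0.740 in scramble and 4.07 ± 0.843 in PBS livers (SD, n = 4, 3 and 4). Against scramble Timp2 was not called, with a log2 change of 0.36 ± 0.18 (limma, adjusted p = 0.148), though it was with column totals (0.86, beside a median of 0.49 for all genes). Against PBS it rose by 0.56 ± 0.17 (limma, adjusted p = 0.0228), a call that was lost without mimic 2 (0.45), mimic 4 (0.48), PBS 3 (0.45) or PBS 4 (0.53).

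Timp3 was the gene of the 9 that fell. It lies on chromosome 10 from 86300372 to 86349506 on the plus strand and encodes the TIMP that stays bound to the matrix and also blocks ADAM proteases such as Adam17. Its level was 3.41, 6.93, 5.63 and 4.79 scaled CPM in mimic 1 to 4, against 9.24, 10.7 and 12.0 in scramble 1 to 3 and 8.97, 8.66, 8.18 and 9.81 in PBS 1 to 4. Every mimic library was below every scramble and PBS library. Timp3 averaged 5.19 ± 1.48 in mimic, 10.7 ± 1.40 in scramble and 8.90 ± 0.688 in PBS livers (SD, n = 4, 3 and 4). The log2 change was -0.94 ± 0.16 against scramble (limma, adjusted p = 0.0017) and -0.71 ± 0.15 against PBS (limma, adjusted p = 0.00447). Scaling by column totals moves the median of all genes by 0.49 and 0.51 in the 2 comparisons, and there Timp3 changed by -0.43 (adjusted p = 0.137) and -0.19 (adjusted p = 0.465) and was not called. Relative to those medians its changes were -0.92 and -0.69. With mimic 2 and 3 only, Timp3 stayed called, at -0.68 against scramble (adjusted p = 0.00588) and -0.45 against PBS (adjusted p = 0.0264).

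The microRNA behind the mimic and the matching letters in Timp3 are shown because Timp3 was the gene that fell and the only one of the 9 with such a match. The capitals mark the seed of mature mouse miR-30c (bases 2 to 8, RefSeq on GRCm38.p6) and its 7-base complement in the Timp3 3′ UTR (GRCm38, plus strand, each window of 30 bases within 1 exon). The labels do not give the sequence of the mimic, so the natural mature form is printed, which the annotation places at chr1:23291714-23291736 on the plus strand (Mir30c-2) and chr4:120769584-120769606 on the minus strand (Mir30c-1).
miR-30c-5p: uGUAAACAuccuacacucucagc
Timp3 site at chr10:86348867-86348896: ggagactccaaTGTTTACtttctccagtcc
Timp3 site at chr10:86349361-86349390: ttttgtagcacTGTTTACagttttcctcca
Both matches lie in the last part of the longest annotated 3′ UTR of Timp3, which has 3604 bases, starting at its bases 2976 and 3470. The second is followed by a further A, which makes the 8-base form TGTTTACA. Of all 11456 genes with an annotated 3′ UTR, 1834 (16.0%) held the 7-base match and 937 (8.18%) the 8-base form. These shares are not matched for length. The median 3′ UTR had 1166 bases, while that of Timp3 was the longest of the 9 genes. A match of letters describes the sequence and does not show that the microRNA acts on it.

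The makeup of the summed TIMP level differed between the groups. Per kb of the longest coding transcript, Timp1 took 37.9% to 71.3% of the summed Timp1, Timp2 and Timp3 level in mimic livers, against 0.443% to 1.91% in scramble and 0.588% to 3.32% in PBS livers. Timp3 took 10.5% to 25.7% in mimic, 55.7% to 67.2% in scramble and 57.8% to 66.8% in PBS livers. Neither share overlapped between mimic and the other groups, while the share of Timp2 did, at 18.2% to 37.3% in mimic, 32.4% to 42.4% in scramble and 31.2% to 40.4% in PBS livers. The summed level per kb was 6.55 ± 1.74 scaled CPM in mimic, 3.58 ± 0.246 in scramble and 3.04 ± 0.293 in PBS livers (SD, n = 4, 3 and 4), and its lowest mimic value of 4.65 lay above the highest other value of 3.85. Without division by length, the summed scaled CPM overlapped between the groups. It was 12.3 to 17.4 in mimic, 14.8 to 16.8 in scramble and 11.3 to 13.9 in PBS livers. These shares and sums were not tested.

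**Figure D2:**
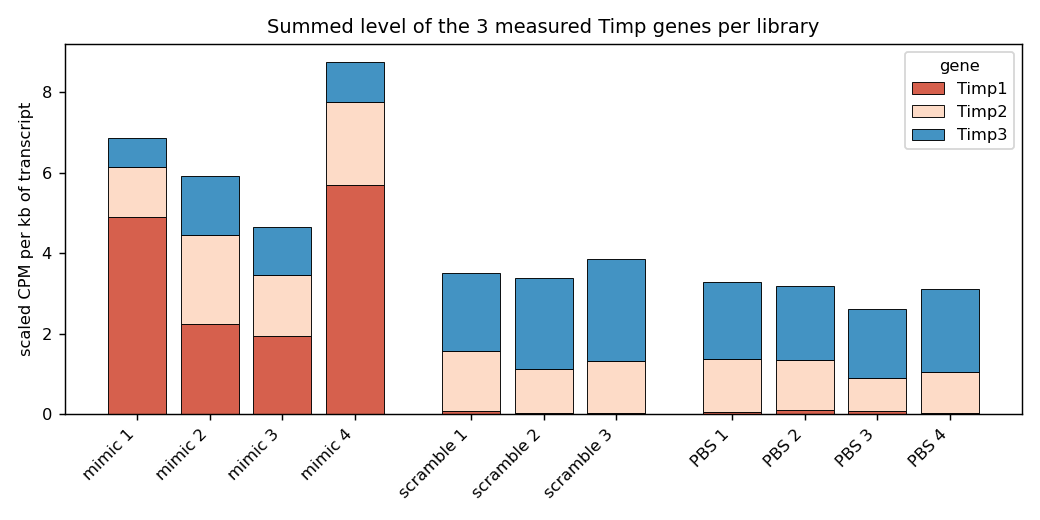
Summed level of Timp1, Timp2 and Timp3 in each library, in scaled CPM per kb of the longest coding transcript. Each bar is 1 library, stacked by gene, with mimic libraries left of scramble and PBS libraries. Timp1 makes up 37.9% to 71.3% of the mimic bars and at most 3.32% of the others, and Timp3 takes the largest share in all scramble and PBS bars.

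Timp1 and Timp3 each lie within a synapsin gene on the opposite strand, and the sources used here do not state whether counting used the strand. Syn1, which encloses Timp1 and shares 0 exon bases with it, was read at 3.73 ± 1.75 scaled CPM in mimic, 0.395 ± 0.0466 in scramble and 0.449 ± 0.261 in PBS livers (SD, n = 4, 3 and 4). Syn1 was higher in mimic by 1.69 ± 0.25 against scramble (limma, adjusted p = 0.000577) and by 1.65 ± 0.23 against PBS (limma, adjusted p = 0.000346), but like Timp1 it reached 1 CPM only in mimic livers and so had to differ. Within each library the level of Syn1 exceeded that of Timp1 by a small amount, 0.308 to 0.624 in mimic, 0.282 to 0.409 in scramble and 0.178 to 0.670 in PBS livers. Syn3, which encloses Timp3 and shares 1733 exon bases with it, was read at 7.38 ± 1.53 in mimic, 13.2 ± 1.09 in scramble and 11.4 ± 0.954 in PBS livers and fell by 0.77 and 0.59 (limma, adjusted p = 0.00141 and 0.00372). With mimic 2 and 3 only, the change of Syn3 against PBS was -0.38. Syn3 exceeded Timp3 by 2.10 to 2.33 in mimic, 2.20 to 2.82 in scramble and 2.23 to 2.82 in PBS livers. Synapsins are vesicle proteins of neurons, and how reads were divided between each pair was not tested, so the reads of Timp1 and Syn1, and of Timp3 and Syn3, cannot be told apart by strand here.

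**Figure D3:**
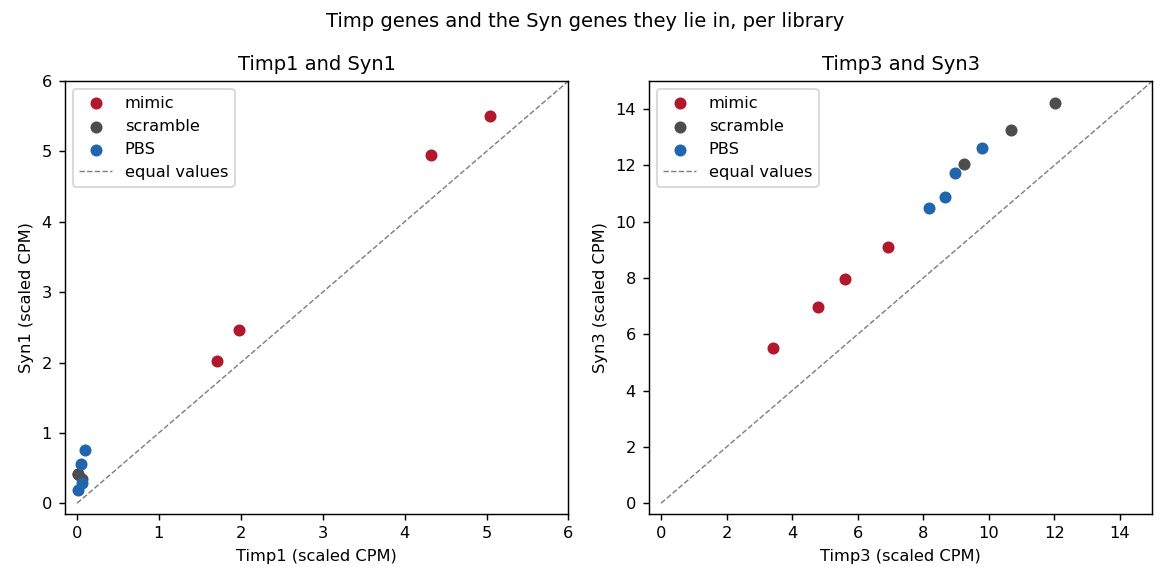
Level of Syn1 against Timp1 (left) and of Syn3 against Timp3 (right), in scaled CPM, 1 point per library, coloured by group, with the dashed line at equal values. Points run parallel to the line in both panels, with Syn1 0.178 to 0.670 above Timp1 and Syn3 2.10 to 2.82 above Timp3.

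The 3 metalloproteinases were all higher in mimic livers by their means, and Mmp2 and Mmp14 rose against both other groups. Mmp2, on chromosome 8 from 92827291 to 92853420 on the plus strand, encodes gelatinase A, which cuts denatured collagen and basement membrane collagen. Mmp2 was read at 2.40, 2.75, 3.04 and 3.35 scaled CPM in mimic 1 to 4, against 1.20, 1.04 and 1.22 in scramble 1 to 3 and 1.01, 1.32, 0.964 and 1.501 in PBS 1 to 4. The mimic group did not overlap with either other group, and the scramble range lay within the PBS range. With means of 2.89 ± 0.406 in mimic, 1.15 ± 0.0963 in scramble and 1.20 ± 0.256 in PBS livers (SD, n = 4, 3 and 4), it rose by 0.85 ± 0.11 against scramble (limma, adjusted p = 0.000281) and by 0.82 ± 0.10 against PBS (limma, adjusted p = 0.000173).

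Mmp14, on chromosome 14 from 54431612 to 54445364 on the plus strand, encodes MT1-MMP, a protease anchored in the cell membrane that activates the Mmp2 precursor. Its level was 16.8, 16.5, 16.8 and 20.05 scaled CPM in mimic 1 to 4, against 8.78, 8.63 and 7.52 in scramble 1 to 3 and 9.83, 8.75, 7.52 and 7.96 in PBS 1 to 4. The mimic group did not overlap with the others; 3 of its libraries lay between 16.5 and 16.8, and mimic 4 stood above them. Mmp14 averaged 17.5 ± 1.68 in mimic, 8.31 ± 0.689 in scramble and 8.51 ± 1.01 in PBS livers (SD, n = 4, 3 and 4), and rose by 0.99 ± 0.10 against scramble (limma, adjusted p = 6.07e-05) and 0.96 ± 0.09 against PBS (limma, adjusted p = 3.72e-05).

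Mmp19, on chromosome 10 from 128790910 to 128800824 on the plus strand, encodes a secreted MMP that cuts basement membrane proteins. It was read at 30.1, 25.4, 26.5 and 31.1 scaled CPM in mimic 1 to 4, against 24.5, 25.8 and 18.8 in scramble 1 to 3 and 21.5, 18.3, 25.3 and 23.5 in PBS 1 to 4. Its lowest mimic value lay below the highest scramble value and just above the highest PBS value. The means were 28.3 ± 2.78 in mimic, 23.0 ± 3.74 in scramble and 22.1 ± 2.98 in PBS livers (SD, n = 4, 3 and 4). Against scramble the log2 change of 0.29 ± 0.13 was not called (limma, adjusted p = 0.103), though it was with column totals (0.86) and with quantile normalization (0.36). Against PBS it was 0.35 ± 0.12 (limma, adjusted p = 0.0414), and this call was lost without mimic 1 (0.31), mimic 4 (0.30), PBS 1 (0.33), PBS 2 (0.26) or PBS 4 (0.38), and with mimic 2 and 3 only (0.23). Mmp19 shares 789 exon bases with Tmem198b on the opposite strand, which was itself higher by 0.29 against scramble (limma, adjusted p = 0.037) and by 0.27 against PBS (limma, adjusted p = 0.0295). The call of Tmem198b against scramble was lost without mimic 1, 3 or 4 or scramble 1 or 3 (0.21 to 0.29), and against PBS without mimic 1, 3 or 4 or PBS 1 or 4 (0.23 to 0.29); their reads cannot be told apart there.

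Loxl1, on chromosome 9 from 58287738 to 58313186 on the minus strand, encodes a lysyl oxidase that cross-links elastin and collagen. Loxl1 was read at 1.49, 2.10, 1.62 and 3.17 scaled CPM in mimic 1 to 4, against 0.475, 0.660 and 0.624 in scramble 1 to 3 and 0.452, 0.838, 0.401 and 0.484 in PBS 1 to 4. Mimic 4 was the highest, and no mimic library overlapped with the others. Loxl1 reached 1 CPM only in mimic livers, however, and so had to differ by the filter. Its mean was 2.10 ± 0.762 in mimic, 0.586 ± 0.0984 in scramble and 0.544 ± 0.199 in PBS livers (SD, n = 4, 3 and 4). It was higher by 0.94 ± 0.16 against scramble (limma, adjusted p = 0.00166) and by 0.98 ± 0.15 against PBS (limma, adjusted p = 0.000658). The filter favoured these p-values.

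Sparc, on chromosome 11 from 55394500 to 55423183 on the minus strand, encodes a collagen-binding glycoprotein that regulates how cells meet the matrix and how collagen fibres assemble. Its level was 45.1, 44.9, 35.6 and 67.2 scaled CPM in mimic 1 to 4, against 9.55, 13.4 and 9.44 in scramble 1 to 3 and 12.4, 11.6, 8.41 and 10.5 in PBS 1 to 4. The lowest mimic value was far above the highest value of the other groups, and mimic 4 stood highest. Sparc averaged 48.2 ± 13.4 in mimic, 10.8 ± 2.28 in scramble and 10.7 ± 1.72 in PBS livers (SD, n = 4, 3 and 4). It had the largest change of the 9 genes, 2.04 ± 0.20 against scramble (limma, adjusted p = 4.64e-05) and 2.05 ± 0.18 against PBS (limma, adjusted p = 2.33e-05). Timp1 came next on this scale, which holds down the change of a gene at nearly 0: with a pseudocount of 0.25 in place of 1, Timp1 changed by 3.52 against scramble and 3.41 against PBS, and Loxl1 by 1.44 and 1.54.

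Bgn, on chromosome X from 73483602 to 73495933 on the plus strand, encodes biglycan, a small proteoglycan that binds collagen and can signal through Toll-like receptors when released. Bgn was read at 48.8, 56.2, 55.2 and 66.3 scaled CPM in mimic 1 to 4, against 32.3, 36.4 and 35.5 in scramble 1 to 3 and 32.1, 32.02, 24.2 and 32.3 in PBS 1 to 4. Mimic values were all higher than the others, and PBS 3 stood below the rest of its group. The means were 56.6 ± 7.23 in mimic, 34.7 ± 2.14 in scramble and 30.2 ± 3.97 in PBS livers (SD, n = 4, 3 and 4). Bgn rose by 0.68 ± 0.12 against scramble (limma, adjusted p = 0.00179) and by 0.89 ± 0.11 against PBS (limma, adjusted p = 0.000195). With column totals, where the median of all genes moved up by 0.49 and 0.51, Bgn changed by 1.26 and 1.48 and Mmp14 by 1.54 and 1.53.

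**Figure D4:**
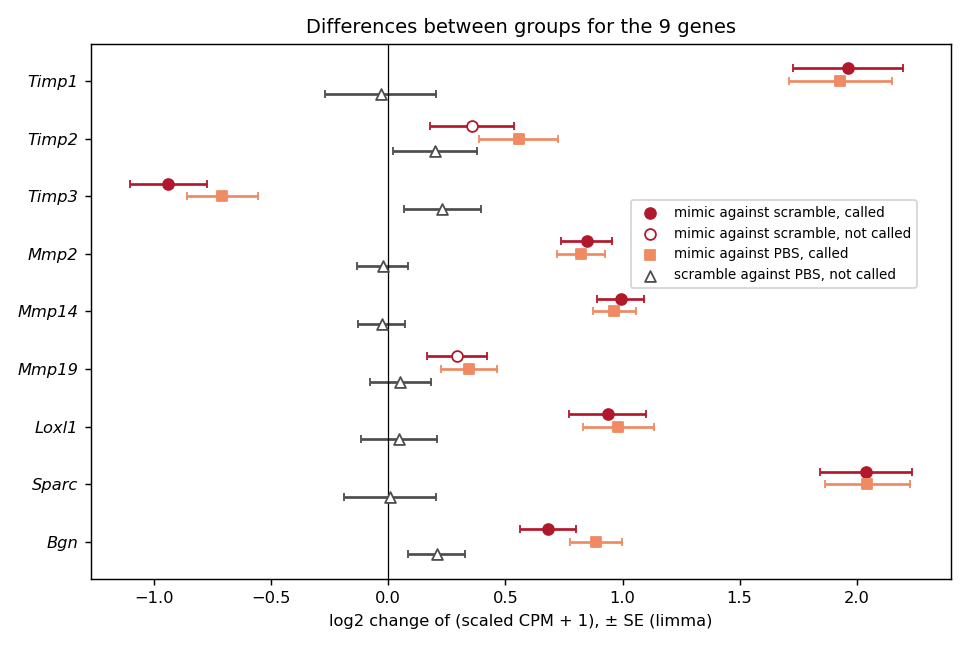
Difference of log2(scaled CPM + 1) between groups for each of the 9 genes, with limma's standard error as bars. Filled marks were called at an adjusted p below 0.05 over 13636 genes. Sparc and Timp1 lie near 2 in both mimic comparisons, Timp3 lies at -0.94 and -0.71, and all scramble against PBS differences lie between -0.03 and 0.23 and were not called. Timp1 and Loxl1 had to differ with the mimic by the filter.

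Counted by overlap alone, 6 of the 9 genes were higher and 1 lower in every mimic library than in every scramble library, where 40.8% of all genes had groups that did not overlap, 21.6% higher and 19.2% lower. Against PBS, 7 were higher and 1 lower in this way, where the background was 31.7%, with 17.2% higher and 14.5% lower. Timp1 and Loxl1, which had to differ by the filter, are among the higher genes in both comparisons. The background over all genes also holds genes that are in the table only through the mimic libraries. In scramble against PBS, Bgn was the 1 gene of the 9 whose groups did not overlap, where the background was 4.72%, with 2.33% higher and 2.39% lower, and its change of 0.21 was not called. Within the mimic group, mimic 4 had the highest value of 7 of the 9 genes, while Timp2 and Timp3 were highest in mimic 2. The highest mimic value was 2.95 times the lowest for Timp1, 2.13 times for Loxl1, 2.03 times for Timp3 and 1.89 times for Sparc, and 1.22 times for Mmp14.

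The order of the levels per kb of transcript was led by Bgn in all groups. In mimic livers Bgn, at 23.4 scaled CPM per kb, and Sparc, at 20.96, did not differ beyond their ranges, and Mmp19 followed at 8.31. Mmp14 at 5.42, Timp1 at 3.69, Timp2 at 1.76, Timp3 at 1.10, Mmp2 at 0.938 and Loxl1 at 0.636 came next, each with a range that overlapped with its neighbour's. In scramble livers the order was Bgn at 14.4, Mmp19 at 6.77, Sparc at 4.70, Mmp14 at 2.57, Timp3 at 2.26, Timp2 at 1.29, Mmp2 at 0.375, Loxl1 at 0.178 and Timp1 at 0.0333. Only Mmp19 and Sparc, and Mmp14 and Timp3, overlapped there. PBS livers had the scramble order with no overlap between neighbours. Timp1 thus stood between Mmp14 and Timp2 in mimic livers and last in the other groups.

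The genes whose profiles over the 11 libraries were most alike were found by the root mean square difference of centred log2(scaled CPM + 1). Among the 9, Mmp2 and Bgn were the closest pair at 0.14, Mmp14 was nearest to Mmp2 at 0.17, Loxl1 to Bgn at 0.17, and Timp1 and Sparc to each other at 0.26. Timp3 was 0.63 from its nearest, Mmp19, which is more than its own spread of 0.45 around its mean. In the whole table, the nearest gene to Timp3 was Syn3, at 0.09. The nearest to Sparc was the collagen gene Col5a2 at 0.19, to Loxl1 the collagen receptor gene Mrc2 at 0.11, to Mmp14 the lysosomal protease gene Ctsb at 0.10, and to Mmp2 the stress gene Nupr1 at 0.08. Timp1 was nearest to the interferon-induced gene Ifitm2 at 0.16, Bgn to the giant scaffold gene Ahnak at 0.11, Timp2 to Rnf150 at 0.14 and Mmp19 to the sorting nexin gene Snx7 at 0.07. Mrc2, Nupr1 and Rnf150, like Timp1 and Loxl1, were in the table only through the mimic libraries. That favoured a profile that is high in mimic livers.

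Promoters are printed for Timp1, Mmp14 and Bgn, which rose together, and whose 250 bases before the RefSeq start (GRCm38.p6) hold no annotated exon. Windows were in the sequence table for 6 of the 9 genes. They were searched on both strands for the AP-1 motif TGANTCA, the Sp1 GC box GGGCGG and the TATA box TATAAA. The capitals mark GC boxes on either strand, which can overlap one another.
Timp1 promoter at chrX:20869916-20870165, plus strand: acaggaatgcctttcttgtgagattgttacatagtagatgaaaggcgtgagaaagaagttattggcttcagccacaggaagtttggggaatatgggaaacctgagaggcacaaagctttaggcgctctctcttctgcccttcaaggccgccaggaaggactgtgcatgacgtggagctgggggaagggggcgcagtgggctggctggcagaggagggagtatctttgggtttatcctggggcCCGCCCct
Mmp14 promoter at chr14:54431348-54431597, plus strand: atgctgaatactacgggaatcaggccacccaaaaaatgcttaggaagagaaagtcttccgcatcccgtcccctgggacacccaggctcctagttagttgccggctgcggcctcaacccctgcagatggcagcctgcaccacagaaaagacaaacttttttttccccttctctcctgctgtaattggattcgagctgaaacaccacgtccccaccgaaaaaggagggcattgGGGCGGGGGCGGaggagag
Bgn promoter at chrX:73483351-73483600, plus strand: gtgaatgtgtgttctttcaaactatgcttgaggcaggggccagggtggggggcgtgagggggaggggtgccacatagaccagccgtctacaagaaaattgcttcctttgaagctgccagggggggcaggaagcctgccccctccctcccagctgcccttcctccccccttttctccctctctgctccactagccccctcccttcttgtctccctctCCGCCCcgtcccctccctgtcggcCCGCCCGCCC
The Timp1 window held 1 GC box, the Mmp14 window 2 and the Bgn window 3, all within the part nearest to the start. Of the 6 windows, 5 held a GC box, as did 32.7% of all 32851 promoters and 55.1% of the 12071 of measured genes. None of the 6 held the AP-1 motif, found in 6.75% of all promoters and 4.79% of those of measured genes, or the TATA box, found in 12.4% and 6.95%. The Sparc window held none of the 3 motifs, but it lies inside the gene as GENCODE M21 annotates it. Annotated exon entries fell in the windows of Sparc (3), Timp2 (2) and Timp3 (1), so these windows are not purely upstream sequence. A motif match describes letters in these windows only.

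Other genes of matrix remodelling and of the TGF-beta pathway, which drives matrix production, were taken from lists of 135 genes, of which 89 were measured. Of these, 36 rose and 6 fell in mimic against scramble, with a median change of 0.33, where 17.3% and 14.7% of all genes were called and their median was 0.00. Against PBS 46 rose and 5 fell, with a median of 0.37, where 20% of all genes were higher and 17.1% lower. In scramble against PBS 0 were called. Of the 89, 17 were in the table only through the mimic libraries, as fewer than 3 of the other libraries reached 1 CPM. That favoured a higher level in mimic livers, and 14 of these 17 are among the 36. Of the other 72, 22 rose and 6 fell against scramble (30.6% and 8.33%), beside 14.6% and 15.9% of all genes that passed without the mimic libraries. Against PBS 30 of the 72 rose and 5 fell (41.7% and 6.94%), beside 17.4% and 18.5% of all such genes. Of 5 other MMPs measured, 4 were higher against scramble and 0 lower. Of the 2 that passed without the mimic libraries 1 rose, and the 3 that were in the table only through them were all higher. The macrophage elastase Mmp12, 1 of these 3, stood at 11.02 ± 2.86 scaled CPM in mimic and 0.260 ± 0.0241 in scramble livers (SD, n = 4 and 3; log2 change 3.22, limma, adjusted p = 3.92e-06). Mmp9, gelatinase B, also 1 of the 3, was higher by 0.92. Of 12 ADAM and ADAMTS proteases, 7 rose and 0 fell, 3 of the 7 in the table only through the mimic libraries. Of the 8 that passed without these libraries, 4 rose and 0 fell (50% and 0%). Among the 7, Adam8, which had to differ, was higher by 1.67, and Adam15 rose by 1.15.

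Of 7 other inhibitors of matrix proteases, 2 were higher and 1 lower against scramble. Of the 6 that reached 1 CPM in 3 libraries without the mimic libraries, 1 was higher and 1 lower, or 16.7% each. Of all such genes, 14.6% were higher and 15.9% lower, so these counts are near that share. Spint2 rose by 0.39. The broad protease inhibitor A2m was higher by 1.72 but had to differ by the filter. The size of its change leaned on 1 library, as it was 1.02 without mimic 1, though still called (limma, adjusted p = 0.0099). Its call was lost without mimic 4 or any 1 scramble library (1.64 to 1.88). Serpine2, an inhibitor of thrombin and plasminogen activators, fell by 1.42, a call lost with mimic 2 and 3 only (-1.16). Of 12 serine and astacin proteases and their receptor, 4 were higher, among them the urokinase receptor Plaur by 1.40 and the plasminogen activator Plat by 0.90, which both had to differ by the filter, as did 3 of the 4. The proprotein convertase Pcsk6 fell by 0.88. Of the 8 of these 12 that passed without the mimic libraries, 1 rose and 1 fell, or 12.5% each, near the share of all such genes. Of 18 genes that fold, process or cross-link collagen, 11 rose and 0 fell, and 1 of the 11 was in the table only through the mimic libraries. Of the 16 that passed without these libraries, 10 rose and 0 fell (62.5% and 0%), beside 14.6% and 15.9% of all such genes. Serpinh1, the collagen chaperone, stood at 16.1 ± 7.19 in mimic and 2.78 ± 0.494 in scramble livers (SD, n = 4 and 3; log2 change 2.08, limma, adjusted p = 0.000461). The 1 gene of the 11 in the table only through the mimic libraries was Fkbp10, another collagen chaperone, higher by 1.16. The lysyl oxidase Loxl3, named after its value was seen, rose by 0.43.

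Of 17 small proteoglycans and matricellular proteins, 6 were higher against scramble, 3 of them in the table only through the mimic libraries. Of the 14 that passed without the mimic libraries, 3 rose and 1 fell (21.4% and 7.14%), beside 14.6% and 15.9% of all such genes. Among the 6, the collagen-binding proteoglycan Lum rose by 1.35 and the Sparc relative Fstl1 by 1.45, and the TGF-beta activator Thbs1, which had to differ, was higher by 1.504. Omd, named after its value was seen, fell by 0.86. Of 18 genes of the TGF-beta axis, 2 rose and 3 fell against scramble, a share near that of all genes. The ligand Tgfb1 stood at 5.94 ± 1.20 in mimic and 2.36 ± 0.443 in scramble livers (SD, n = 4 and 3; log2 change 1.04, limma, adjusted p = 0.000377), and the matrix protein Tgfbi rose by 1.10. The latent TGF-beta binding protein Ltbp4 fell by 1.01, the signal transducer Smad4 by 0.45 and the repressor Skil, named after its value was seen, by 0.43. The call of Smad4 was lost with mimic 2 and 3 only (-0.39), and that of Skil when any library but mimic 3 was left out (-0.50 to -0.31).

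**Figure D5:**
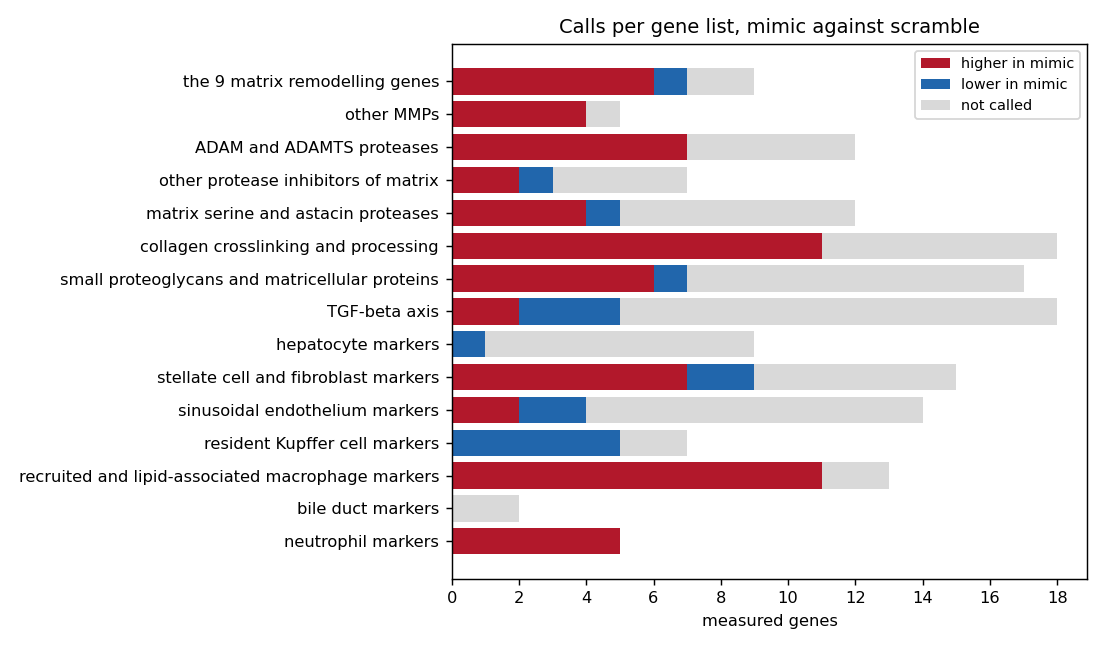
Number of measured genes per list that were called higher (red), called lower (blue) or not called (grey) in mimic against scramble livers, for lists with at least 2 measured genes. The 9 matrix remodelling genes at the top had 6 higher and 1 lower, 2 of the 6 in the table only through the mimic libraries, collagen processing had 11 higher and 0 lower of 18, and the TGF-beta axis had 2 higher and 3 lower of 18. Over all genes, 17.3% were higher and 14.7% lower.

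Markers of some other liver cells differed with the mimic as well, and in whole liver fewer cells of a type and less RNA per cell cannot be told apart. Of 16 stellate cell and fibroblast markers 15 were measured, and their summed level was 206, 209, 173 and 329 scaled CPM in mimic 1 to 4, against 105 to 112 in scramble and 75.4 to 110 in PBS livers. Much of the mimic sum was held by the collagens Col3a1, Col1a2 and Col1a1, with means of 85.4, 39.6 and 34.1 scaled CPM. These stood at 7.30, 3.74 and 1.67 in scramble livers. The higher sum of the mimic livers lay in these collagens. By their means, the other measured markers together were lower in mimic than in scramble or PBS livers. Against scramble 7 of the 15 were higher, 1 of them in the table only through the mimic libraries, and 2 fell. Of the 14 that passed without the mimic libraries, 6 rose and 2 fell (42.9% and 14.3%), beside 14.6% and 15.9% of all such genes. Ecm1 fell by 1.19 and Reln, named after its value was seen, by 0.94, a call lost without scramble 1 (-0.87). The other 6 were not called, and they went both ways. Lrat averaged 4.51 in mimic and 6.03 in scramble livers, and Rgs5 3.23 and 2.62, both named after their values were seen. Mimic 4 had the highest sum, as it had for 7 of the 9 matrix remodelling genes.

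Over all genes, 17.3% were higher and 14.7% lower against scramble. Of 13 markers of recruited and lipid-associated macrophages, 11 were higher and 0 lower, 6 of the 11 in the table only through the mimic libraries. Their sums were 172 to 276 in mimic, 37.5 to 57.7 in scramble and 34.8 to 89.8 in PBS livers. Of the 7 that passed without the mimic libraries, 5 rose (71.4%), beside 14.6% of all such genes. Of 7 markers of resident Kupffer cells, 0 rose and 5 fell, with sums of 36.1 to 72.8 in mimic, 65.3 to 126 in scramble and 69.0 to 136 in PBS livers. All 5 measured neutrophil markers were higher, but 4 of them were in the table only through the mimic libraries and had to differ, with sums of 16.2 to 35.6 in mimic, 1.17 to 1.77 in scramble and 1.65 to 2.66 in PBS livers. Hepatocyte markers had the highest summed level of the lists in every library. Of 9 measured, 1 fell (11.1%) and 0 rose, beside 15.9% lower and 14.6% higher among all genes that passed without the mimic libraries. The sums of the hepatocyte markers were 23138 to 30749 in mimic, 33450 to 37359 in scramble and 32145 to 38197 in PBS livers. Of 14 sinusoidal endothelial markers 2 were higher and 2 lower against scramble, a share near that of all genes. Against PBS 1 was higher and 6 lower, with a median change of -0.34, where 20% of all genes were higher and 17.1% lower. Against scramble, of 2 measured bile duct markers and 1 measured mesothelial marker 0 were called. Against PBS both bile duct markers were higher, 1 of them in the table only through the mimic libraries. The 8 lymphocyte markers were not analysed here. The part of these cell types, of the Mup and Saa shares and of depth in the changes of the 9 genes was not tested.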

How the data were processed

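Whole liver RNA was read by stranded, paired-end mRNA sequencing, per the labels' protocols. Per the submitters' processing notes, the tools included Bowtie, bedtools 2.17.0 and edgeR 3.8.6, on build mm10; settings, annotation and use of strand in counting are not given in the sources used here. The deposited values are a scaled signal per gene: columns sum to between 605536 and 1504311, and 100% of values in each library were whole multiples of a step (tolerance 1e-06), from which reads per gene were inferred and used as depth. As these values are no plain CPM or counts, no count test was used. The design had assumed CPM, and the signal was treated the same way.

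Limma 3.58.1 (R 4.3.3) was run on log2(value + 1) with 3 group means over all 11 libraries, a variance trend and Benjamini-Hochberg adjustment over 13636 genes. On simulated data of 13636 genes, mimic against scramble gave back 95% of 2-fold and 100% of 4-fold changes with 11 false calls. Mimic against PBS gave back 97% and 100% with 15, and scramble against PBS 89% and 100% with 11. The simulation gave every gene and group the same spread and changed no low gene. Its figures therefore do not describe low genes, or genes with a wider spread such as Timp1 in mimic livers. Shares and ratios were computed per library. Positions, 3′ UTRs and transcript lengths were read from GENCODE M21, on the GRCm38 assembly that mm10 also names, where 12032 rows matched by symbol, and miRNA and promoter sequences from RefSeq on GRCm38.p6.

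Groups came from the sample titles. The members and gene lists were chosen with earlier results of these data known. Named besides the 9 genes were up to 4 genes per list with the smallest p in mimic against scramble, and each gene's nearest profile. A gene that this rule names is not reported here. Alternatives covered the pseudocount, filters, scaling, variance model, replicate block, libraries in the fit and leaving out each library.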

Additional observations from a re-analysis of the deposited data

Results flagged for a closer look

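Of 18 groups of 4 libraries examined (9 genes in mimic and in PBS), 2 held a library far from the others, where chance gives about 1 in 20. Mmp14 in mimic 4 stood at 20.05 scaled CPM, above the other mimic libraries at 16.5 to 16.8, and Mmp14 was called in both mimic comparisons without that library. Bgn in PBS 3 stood at 24.2 scaled CPM, below 32.02 to 32.3 in the other PBS libraries, and Bgn was called in mimic against PBS without it. What set these libraries apart was not tested.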

How the results depend on the processing

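Changes in mimic kept their direction for each of the 9 genes in every alternative that held it. Calls in mimic against scramble numbered 4363, and 2816 with a mean of at least 5, 2824 to 4405 with 1 library left out and 2548 with mimic 2 and 3 as the only mimic libraries. The mean of at least 5 left 6 of the 9 genes in the fit and called 4. Calls in mimic against PBS numbered 5059, and 3273 with a mean of at least 5, 3758 to 5681 with 1 library left out and 2894 with mimic 2 and 3 only. Of the 9 genes, 7 were called against scramble with any library left out, and 7 to 9 against PBS. Column totals gave 5498 higher and 110 lower against scramble and 6882 and 120 against PBS, in place of 2363 and 2000, and 2733 and 2326; 8 of the 9 genes were then higher and 0 lower in both.

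In scramble against PBS, 5 genes were called when these groups were fitted alone, and 0 to 1 with 1 library left out (1 without PBS 1). None of the 9 was called there, and small changes turned sign: with 1 library left out Mmp2 ranged from -0.0758 to 0.0403, Mmp14 from -0.0789 to 0.0364, Mmp19 from -0.0336 to 0.186 and Sparc from -0.147 to 0.0875.

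Deviations of same-numbered libraries were only weakly correlated (-0.28 to 0.26) and the labels name no pairing, so libraries were not paired. With groups of 3 or 4 libraries these correlations cannot exclude a pairing. With the replicate number as a block, 3808, 4584 and 0 genes were called in the 3 comparisons, 7, 8 and 0 of the 9, with Mmp19 lost against PBS (0.35). Scramble against PBS became 0.0564 for Timp1 and 0.0363 for Mmp2, not called.

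Leaving out libraries for the other genes named, and counting without genes that are in the table only through the mimic libraries, were chosen after seeing the data. Count tests, planned for a table of counts, were not run. Timp1 in scramble and PBS livers rests on 1 to 5 reads per library, so its ratio there is set by few reads. Where a call was lost, the cause was not tested.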
